A study of Mus musculus and blank sample with 191 samples.

Results

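S100g encodes calbindin-D9k, a small cytosolic protein of the S100 family that binds calcium, and its RNA was followed here in the mouse uterus together with 5 genes that carry calcium across the same cells. The 6 members were taken by symbol from a whole-transcriptome table of 19962 targets, and all 6 were among the 14881 targets tested. Trpv6 is a calcium entry channel, Calb1 (calbindin-D28k) is a second cytosolic calcium buffer, Atp2b1 and Atp2b4 are calcium pumps of the plasma membrane, and Slc8a1 is a sodium-calcium exchanger. S100g was chosen from its own PV minus WT values, which differed between epithelium and stroma, so those values are given as a description without a test. The other 5 members were listed for their role in calcium transport, with earlier results of these data known.

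Epithelia that move calcium take it up through channels such as Trpv6, shuttle it through the cytosol on calbindins and pass it out through plasma-membrane pumps and the sodium-calcium exchanger. In the gut and kidney this route is under the control of vitamin D, and in the rodent uterus calbindin-D9k is known as a gene that responds to estrogen and progesterone. Thyroid hormone receptors belong to the same family of nuclear receptors as those for vitamin D and estrogen.

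RNA was measured with GeoMx, in which pathologist-drawn regions of fixed uterus, stained for pancytokeratin and smooth muscle actin, are lit so that gene-specific probe tags are released and counted. The PV mice (labelled PV/N, Thra1PV/+) are heterozygous germline carriers of a knock-in mutation that turns thyroid hormone receptor alpha 1 into a dominant-negative protein in every tissue that uses the gene, and the wild-type (WT) mice are labelled N/N. The 6 PV mice were 2.4 to 6.3 and the 8 WT mice 4.0 to 9.0 months old, and the labels name no treatment. The methods describe cycle-matched mice at metestrus, but the labels of the regions give no stage, and glands and surface epithelium are pooled. The first plate, used throughout unless the second is named, held 31 PV and 29 WT epithelium regions and 21 PV and 14 WT stroma regions, and the regions of a mouse within a compartment were added up, which made the mouse the replicate. WT6 had no stroma region on it, so 13 mice had both compartments. Regions held 61690 to 3130397 counts (median 653387), and the sums ran from 61691 counts in PV2 epithelium, a single region, to 13492500 in PV1 epithelium, with 15 regions.

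Columnar epithelium minus fibroblast marker levels placed 60 of 60 epithelium and 35 of 35 stroma regions of the first plate on their labelled side. On the second plate only 38 of 57 and 19 of 37 were so placed, and it was therefore kept as an alternative. The dividing value, -1.46, lay midway between the first plate's own epithelium and stroma medians and was carried to the second. Epithelium regions ran from -0.08 to 3.24 and stroma regions from -6.56 to -2.92 on the first plate. On the second they ran from -6.48 to 1.85 and from -6.43 to 2.34. Levels below are log2 CPM, that is counts scaled to the TMM-adjusted library size of each sum, its total corrected for differences in composition. Differences are log2 differences fitted by edgeR. The SE of an edgeR difference was derived, as its absolute value divided by the square root of the quasi-likelihood F statistic. In these bulk regions, fewer cells of a type and less RNA per cell cannot be told apart. Each gene has its own probe, so levels were not compared between genes.

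The stretches upstream of S100g and Trpv6 are shown because, of the 5 members in the RefSeq promoter table, these were the only ones with matches to the 6-base half-site of this receptor family, AGGTCA, in the 250 bases before the RefSeq start. On GRCm38.p6 the S100g stretch is chrX:162964600-162964849 and the Trpv6 stretch is chr6:41636406-41636655, both on the minus strand. Capitals mark AGGTCA or its reverse complement TGACCT.
S100g: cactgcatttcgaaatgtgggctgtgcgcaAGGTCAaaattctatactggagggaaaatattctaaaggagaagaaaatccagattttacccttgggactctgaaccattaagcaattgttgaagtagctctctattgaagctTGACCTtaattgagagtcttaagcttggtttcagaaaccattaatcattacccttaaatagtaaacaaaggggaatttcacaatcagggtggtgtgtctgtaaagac
Trpv6: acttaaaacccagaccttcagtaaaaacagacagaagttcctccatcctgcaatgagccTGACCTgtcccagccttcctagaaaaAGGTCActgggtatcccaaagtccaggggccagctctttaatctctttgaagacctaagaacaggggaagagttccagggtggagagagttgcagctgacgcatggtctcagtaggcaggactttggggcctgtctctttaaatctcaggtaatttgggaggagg
The matches lay 220 to 215 and 107 to 102 bases upstream of S100g, and 191 to 186 and 165 to 160 bases upstream of Trpv6. Searched on both strands, AGGTCA occurred in 14% of 32851 mouse promoter stretches of this length, and 1.36% held 2 or more matches, as these 2 genes did. The paired forms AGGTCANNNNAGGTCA and GGTCANNNTGACC, found in 0.0152% and 0.0639% of stretches, were in none of the members' stretches. The 2 stretches of Atp2b1 and the single ones of Atp2b4 and Slc8a1 held no AGGTCA, and Calb1 was not matched in the RefSeq promoter table. The Atp2b4 and Atp2b1 stretches lie inside, or almost wholly inside, the gene spans given below. For Atp2b1 and Atp2b4 the bases before the gene span were therefore largely not searched.

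In GENCODE vM21 on GRCm38, S100g spans chrX:162961992-162964599 (minus strand) and Trpv6 chr6:41620624-41636405 (minus). Calb1 spans chr4:15881264-15908064 (plus) and Atp2b1 chr10:98914406-99026143 (plus). Atp2b4 spans chr1:133699457-133801041 (minus) and Slc8a1 chr17:81373105-81738377 (minus). These are whole gene spans, since the positions of the probes within the transcripts were not used here.

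The first comparison asked where in the uterus each step of calcium handling is transcribed. S100g, Trpv6 and Calb1 were higher in epithelium than in stroma in every mouse, Atp2b1 was slightly higher in epithelium, and Atp2b4 and Slc8a1 were higher in stroma. All 6 members passed the paired edgeR test at an adjusted p of 0.05 over all genes, beside 63.2% of the genes tested. Of the members, 4 were higher in epithelium (28.6% of all genes) and 2 in stroma (34.6%). Of all called genes 45.3% were higher in epithelium, and 33.8% under upper-quartile scaling, which moved the median of all genes by -0.14 and turned the sign of no member. On the second plate alone none of the 6 was called, and Atp2b1, Atp2b4 and Slc8a1 had the other sign there.

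S100g ran from 3.99 to 10.75 log2 CPM over the epithelium sums and from 3.46 to 6.21 over the stroma sums. Within mice, epithelium exceeded stroma by 0.43 in PV6, the smallest gap, and by 4.54 in WT1, the largest, with a median of 2.70 and a higher epithelium level in 13 of 13 mice. The fitted difference was 2.83 ± 0.29 (SE, n = 13 mice), with an edgeR adjusted p of 1.3e-07. In stroma the S100g signal was close to the floor of the assay, at a median of 3.40 times the negative probe in PV and 3.82 times in WT regions, against 20.4 and 35.3 times in epithelium. With the negative-probe level of each region subtracted, the genotype difference of S100g in stroma widened, as given below.

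Trpv6 and Calb1, which stand before and beside S100g on the same route, showed gaps of the same kind. For Trpv6, epithelium exceeded stroma by 0.17 in WT1 and by 5.14 in WT3, with a median of 3.26 and 13 of 13 mice higher in epithelium (3.00 ± 0.34, SE, n = 13, edgeR adjusted p = 6.3e-07). The gap was widely spread among WT mice (SD 1.72, n = 7) and less so among PV mice (SD 1.01, n = 6), and this difference in spread was not tested. Calb1 had the least varied gap of the 3, from 2.32 in WT3 to 5.21 in WT4, also with 13 of 13 mice higher in epithelium (3.56 ± 0.23, SE, n = 13, edgeR adjusted p = 4.1e-10). In stroma both lay near the negative probe, at medians of 3.84 times in PV and 1.91 times in WT regions for Trpv6, and 2.78 and 2.51 times for Calb1. Of the PV stroma regions, 2 had a count of 0 for Trpv6 and 1 for Calb1.

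The extrusion genes were spread over both compartments. Atp2b1, the pump found in most tissues, had epithelium means of 7.51 ± 0.45 (SD, n = 6) in PV and 7.06 ± 0.39 (SD, n = 8) in WT and stroma means of 6.89 ± 0.47 (SD, n = 6) and 7.08 ± 0.40 (SD, n = 7). Its gap was 0.34 ± 0.12 (SE, n = 13, edgeR adjusted p = 0.019), with 10 of 13 mice higher in epithelium, and it was lost under upper-quartile scaling (0.21, adjusted p = 0.10), in limma on Q3 values (0.16, adjusted p = 0.21) and without the mouse block (adjusted p = 0.11). Atp2b4, another pump of the family, was higher in stroma in 12 of 13 mice, by 1.44 on the log2 scale (-1.44 ± 0.18, SE, n = 13, edgeR adjusted p = 1.3e-06). The exception was PV2, whose single stroma region held 1 count of Atp2b4. Slc8a1 was higher in stroma in 9 of 13 mice (-0.55 ± 0.18, SE, n = 13, edgeR adjusted p = 0.015), a call lost without PV1 (-0.37, adjusted p = 0.086) and without the block (adjusted p = 0.13).

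**Figure D1:**
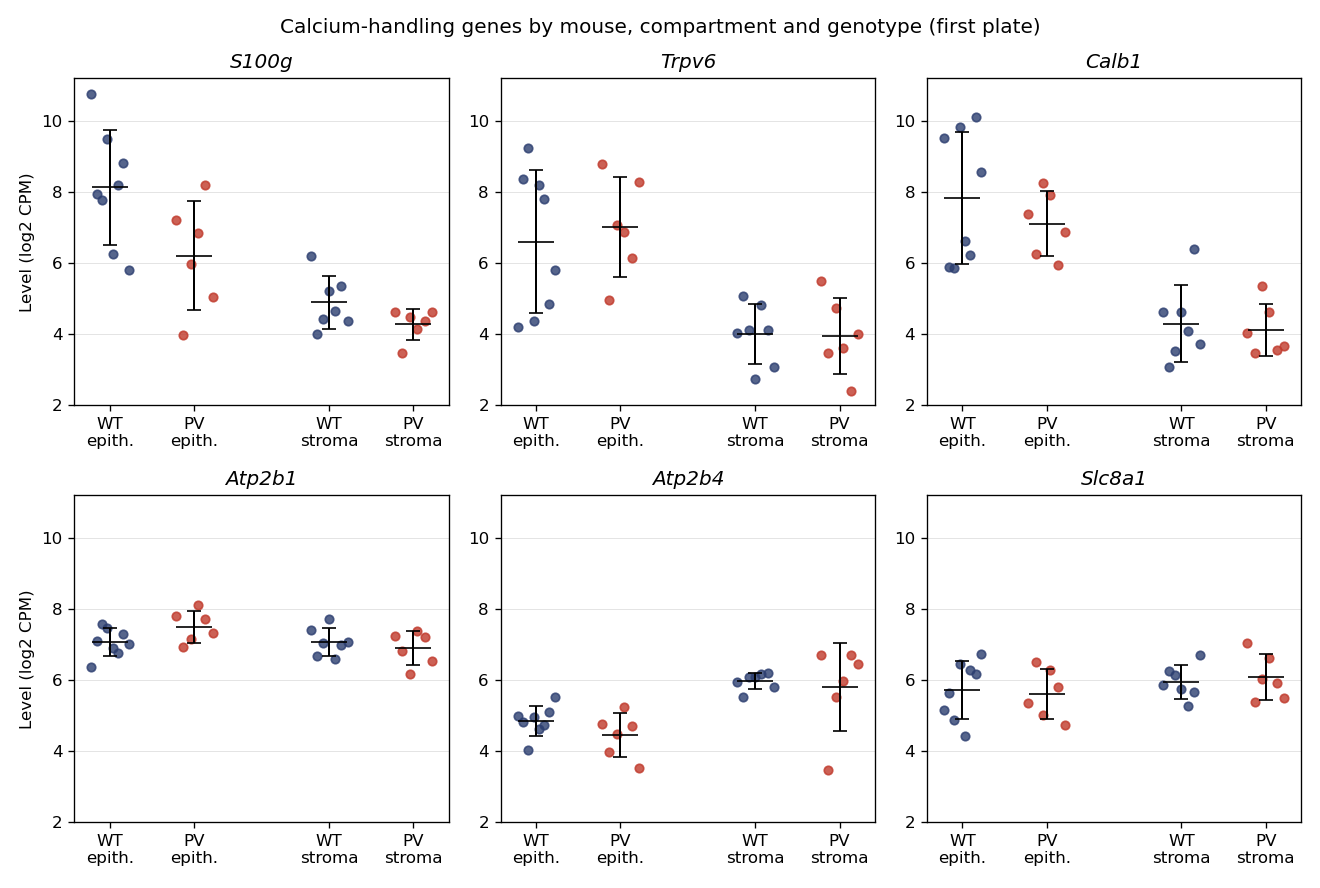
Level of each member in log2 CPM (y axis) for every mouse in the 4 groups, with black bars for the group mean and SD. S100g, Trpv6 and Calb1 sit higher in epithelium, Atp2b4 sits higher in stroma, and every pair of genotype groups overlaps.

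The other calcium genes were counted by list, beside 28.6% of all genes called higher in epithelium and 34.6% higher in stroma, and the lists were not tested against each other or against all genes. Of 17 tested genes of calcium entry, 3 were higher in epithelium and 10 in stroma, with a median difference of -0.45 against -0.05 over all genes. Trpv4, a mechanically gated channel, was higher in epithelium (1.60 ± 0.15), as were the store sensor Stim2 (0.65 ± 0.10) and the calcium-activated cation channel Trpm4 (0.90 ± 0.17). On the stroma side were Cacna1c, the pore of the L-type channel (-2.08 ± 0.17), the polycystin Pkd2 (-1.40 ± 0.12) and the T-type channel Cacna1h (-1.11 ± 0.15). The weakest of these calls was Trpm4, at an edgeR adjusted p of 0.0002.

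Of 12 tested store genes, 8 were higher in epithelium and 2 in stroma, with a median difference of 0.43, read beside the same 28.6% and 34.6% of all genes. They included the inositol trisphosphate receptors Itpr3 (1.86 ± 0.16) and Itpr2 (1.71 ± 0.14) and the secretory-pathway pump Atp2c2 (1.83 ± 0.24), while Slc8b1, the mitochondrial exchanger, was higher in stroma (-0.47 ± 0.13). Of 14 buffering and sensing genes, 8 were higher in epithelium and 3 in stroma, among them Calm2, a calmodulin gene (0.82 ± 0.09), and the reticulocalbins Rcn3 (-2.67 ± 0.13) and Rcn1 (-1.86 ± 0.18), which bind calcium in the secretory pathway. Only 4 of the 9 other extrusion genes were tested, and Atp2b2, a further plasma-membrane pump, was higher in epithelium (2.52 ± 0.18), whereas Slc24a3, a potassium-dependent exchanger, was higher in stroma (-1.33 ± 0.17).

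Of 12 other S100 genes tested, 1 was higher in epithelium, S100a11 (1.33 ± 0.13), and 7 in stroma, beside 28.6% and 34.6% of all genes, led by S100a6 (-1.69 ± 0.11) and S100a4 (-1.26 ± 0.14), with a list median of -0.43. Of 13 hormone-control genes, only the estrogen receptor Esr1 (0.64 ± 0.12) was called higher in epithelium, and 6 were higher in stroma, among them the parathyroid hormone receptor Pth1r (-2.53 ± 0.19), Fgfr1 (-1.92 ± 0.15) and the glucocorticoid receptor Nr3c1 (-0.60 ± 0.10). Of 13 uterine genes known to respond to estrogen or progesterone, 8 were higher in epithelium and 2 in stroma, with Ltf (4.22 ± 0.48), Muc1 (3.54 ± 0.24) and Aqp5 (2.88 ± 0.24) on the epithelial side and Hand2 (-2.54 ± 0.15) on the stromal side. All differences in these lists are edgeR fits over 13 mice with SE.

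The next comparison set PV against WT mice within each compartment. S100g in PV epithelium was 7.20 log2 CPM in PV1, 3.99 in PV2, 5.99 in PV3, 6.84 in PV4, 8.21 in PV5 and 5.05 in PV6 (6.21 ± 1.53, SD, n = 6). In WT epithelium it was lowest in WT8 (5.80), had a median of 8.08 and was highest in WT1 (10.75), with WT4 at 9.50 and WT7 at 8.81 (8.13 ± 1.62, SD, n = 8). All PV mice but PV5 lay below the WT median, yet the groups overlapped, since WT8 and WT5 (6.24) lay below PV1, PV4 and PV5. The PV minus WT difference was -2.005 ± 0.711 (SE). The value of PV2 rests on 1 count of S100g, and without that mouse the difference was -1.87 ± 0.75.

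Leaving out WT1 moved that difference most, to -1.33 ± 0.59, and leaving out PV5 moved it the other way, to -2.51 ± 0.76. With age in the fit the difference was -2.70 ± 0.84, and among mice of 4.0 to 6.3 months it was -2.61 ± 0.87. The second plate alone gave -2.11 ± 0.84 in epithelium, from group means of 6.19 ± 1.01 (SD, n = 5) in PV and 7.41 ± 2.04 (SD, n = 8) in WT. These values come from the same mice and are not independent of the choice of S100g.

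In stroma S100g was lower and less spread, at 4.28 ± 0.44 (SD, n = 6) in PV, from 3.46 in PV2 to 4.62 in PV6, and 4.89 ± 0.75 (SD, n = 7) in WT, from 4.00 in WT2 to 6.21 in WT1. The difference was -0.74 ± 0.31 (SE), and the groups overlapped. Without WT1, the highest in both compartments, it was -0.39 ± 0.24, and subtracting the negative-probe level gave -1.004 ± 0.414. Here the second plate ran the other way, with 6.62 in PV and 5.70 in WT stroma and a difference of 1.18 ± 0.56, and both plates together gave 0.75 ± 0.48. On the second plate 38 of 57 epithelium and 19 of 37 stroma regions lay on their labelled side, which limits its epithelium difference as well. Whether the labels have a part in the turned sign was not tested. Within mice, the epithelium minus stroma gap of S100g had a median of 2.05 in PV and 3.45 in WT mice, and the fitted genotype by compartment difference was -1.11 ± 0.56 (SE, n = 13).

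None of the other 5 members was called for genotype in either compartment. In epithelium edgeR called 0 of 14881 genes (0%), with 8.22% at an unadjusted p under 0.05, a level that 1 of these 5 members reached; DESeq2 called 28 genes and limma 0, none of them one of these 5. In stroma edgeR again called 0 genes (0%), with 3.52% at an unadjusted p under 0.05 and none of the 5, while DESeq2 called 2 genes and limma 1. For genotype by compartment edgeR called 0 genes (0%), with 7.16% at an unadjusted p under 0.05 and 1 of the 5 members among them, DESeq2 called 1 gene and limma 0.

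Trpv6, the entry channel, had a wide spread between the mice of both genotypes in epithelium. It ran from 4.95 in PV2 through a median of 6.96 to 8.79 in PV1 among PV mice, and from 4.20 in WT1 through 6.81 to 9.25 in WT3 among WT mice. The difference was -0.02 ± 0.73 (SE, edgeR adjusted p = 0.997), and it moved to 1.74 ± 0.70 with age in the fit (adjusted p = 0.39). WT1, WT4, WT7 and WT8 had the lowest WT levels (4.20, 4.37, 4.84 and 5.80), and the other WT mice lay between 7.82 and 9.25. In stroma the difference was 0.43 ± 0.40, and -0.25 without PV1.

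Calb1, the larger calbindin, was high in the very WT mice in which Trpv6 was low, at 9.52 in WT1, 9.84 in WT4, 10.11 in WT7 and 8.55 in WT8, against 5.86 to 6.62 in the other WT mice. PV mice lay between 5.94 in PV5 and 8.25 in PV3, with a mean of 7.11 ± 0.92 (SD, n = 6) against 7.83 ± 1.86 (SD, n = 8) in WT, so the groups overlapped. The edgeR difference of the summed counts was -1.33 ± 0.69 (SE, adjusted p = 0.63), but limma on the averaged log2 Q3 values of a mouse gave -0.16 ± 0.41. Summed counts follow the brightest and deepest regions of a mouse, and Calb1 was the member whose regions differed most, as described below. In stroma Calb1 differed by -0.46 ± 0.46 (SE), and the sign turned without WT7 (0.26), on both plates (2.95) and on the second plate alone (3.69).

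Ltf, a secretory gene known for its response to estrogen, had epithelium levels in these 4 WT mice of 4.58 in WT1, 7.07 in WT4, 8.70 in WT7 and 10.72 in WT8. In the other WT mice it was 10.37 to 12.57, a range into which only WT8 of those 4 fell. Whether the stage of the cycle has a part in the levels of the members was not tested, since the labels give no stage.

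In epithelium the extrusion genes varied less between mice than the entry and buffer genes did. Atp2b1 in epithelium was 6.92 to 8.12 (median 7.53) in PV and 6.38 to 7.59 (median 7.06) in WT mice, a difference of 0.50 ± 0.21 (SE) with an unadjusted edgeR p of 0.033 and an adjusted p of 0.58. Its genotype by compartment difference was 0.63 ± 0.24 (SE, unadjusted p = 0.017, adjusted p = 0.60 by edgeR). Neither sign held on the second plate alone, which gave -0.14 in epithelium and -0.55 for genotype by compartment, and both plates together gave -0.01 for the latter. Its level was higher in epithelium than in stroma in 6 of 6 PV and 4 of 7 WT mice. Atp2b4 differed by -0.22 ± 0.25 in epithelium and 0.25 ± 0.25 in stroma, and Slc8a1 by -0.27 ± 0.36 and 0.34 ± 0.27 (SE). On the second plate alone Atp2b4 gave 0.13 and -0.59, and Slc8a1 in stroma -0.22. For each of the 3 genes the groups overlapped.

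**Figure D2:**
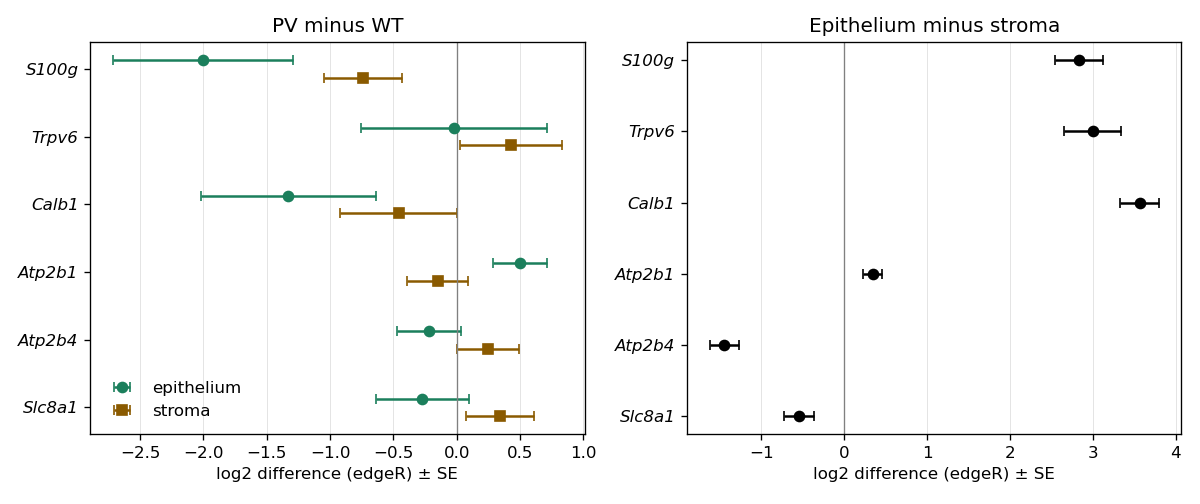
Fitted log2 differences (x axis) with SE for PV minus WT in each compartment on the left and for epithelium minus stroma on the right. S100g has the lowest PV minus WT value in epithelium, -2.005, and is the gene chosen on that value, and Calb1, Trpv6 and S100g lead the right panel.

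No gene of the other calcium, hormone, S100 or uterine lists was called for genotype. The list medians in epithelium ran from -0.34 for the estrogen and progesterone regulated genes to 0.21 for buffering and sensing, against -0.01 over all genes. The lowest unadjusted p among the calcium lists belonged to Anxa2, an annexin that binds membranes in the presence of calcium and had 9.36 ± 0.61 (SD, n = 6) in PV and 8.25 ± 0.66 (SD, n = 8) in WT epithelium, a difference of 1.10 ± 0.30 (SE, edgeR adjusted p = 0.37). Its partner S100a10, which forms a complex with it, had 8.46 ± 0.36 against 7.77 ± 0.55 in epithelium (0.67 ± 0.24, adjusted p = 0.52) and the lowest unadjusted p for genotype by compartment in its list (1.08 ± 0.27, adjusted p = 0.58).

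Vdr, the vitamin D receptor, was 3.21 ± 0.47 in PV and 3.90 ± 0.64 in WT epithelium (-1.10 ± 0.34, SE, edgeR adjusted p = 0.45). Lrp2, an endocytic receptor that takes up vitamin D bound to its carrier, was 3.58 ± 0.62 in PV and 5.82 ± 2.40 in WT epithelium (-3.84 ± 1.04, SE, adjusted p = 0.37). The Lrp2 groups overlapped, with WT from 3.52 to 8.85 and PV from 2.75 to 4.55. Both genes were low in PV epithelium and were not set against the negative probe. The highest PV level of Vdr, 3.99, was also the level that 1 count of S100g gave in PV2 epithelium. In stroma the lowest unadjusted p in its list belonged to Stim2 (0.56 ± 0.20), to Nr3c1 (0.57 ± 0.21) and to Fst, a binding protein of activin (-1.96 ± 0.58), each with an edgeR adjusted p of 0.999992.

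Marker lists of the cell types in the regions were summarised beside these results. The mean level of the gland markers (7 of 10 tested) in epithelium was 4.77 ± 0.52 (SD, n = 6, range 4.17 to 5.44) in PV and 5.37 ± 0.68 (SD, n = 8, range 4.56 to 6.61) in WT mice. Fibroblast markers (10 of 10) in epithelium were 6.53 ± 0.61 and 6.93 ± 0.48, and columnar epithelium markers (12 of 12) were 8.41 ± 0.58 and 8.13 ± 0.35. On the scale of log2 summed CPM, gland markers ran from 7.59 to 9.59 in PV and 8.11 to 10.08 in WT epithelium. Of the 7 gland markers 4 had an unadjusted p under 0.05 for genotype in epithelium, with a list median of -0.72, and the only squamous marker tested, of 10, also did, at 0.81. In stroma the smooth muscle markers (7 of 8) had a median difference of 0.76 and levels of 6.46 ± 0.68 (SD, n = 6) in PV and 6.09 ± 0.61 (SD, n = 7) in WT mice, and the endothelial markers (8 of 8) had 5.89 ± 0.34 and 5.47 ± 0.20, with 2 genes of each list at an unadjusted p under 0.05. No marker gene was called for genotype. The part of these levels in the member differences was not tested.

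Age was fitted as a slope beside genotype, because the PV mice were younger. Trpv6 in epithelium had a slope of 0.75 ± 0.20 log2 units per month (SE, n = 14), which did not pass the threshold over all genes in edgeR (unadjusted p = 0.0014, adjusted p = 0.12) but did in DESeq2 (adjusted p = 0.016) and in edgeR without PV1 (adjusted p = 0.037). The youngest mice, PV2 and PV5 at 2.4 months, had 4.95 and 6.13 log2 CPM, and the oldest, WT2 at 7.4 and WT3 at 9.0 months, had 8.36 and 9.25. WT1, at 4.20 and 6.3 months, lay far from this order. The slope was 0.43 with genotype left out and -0.23 on the second plate alone.

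Slc8a1 in epithelium had a slope of -0.35 ± 0.09 per month (edgeR adjusted p = 0.115, DESeq2 adjusted p = 0.0057), and Atp2b4 one of -0.22 ± 0.07 (edgeR adjusted p = 0.20, DESeq2 adjusted p = 0.048). On the second plate alone neither slope was negative, at 0.02 for Slc8a1 and 0.14 for Atp2b4. S100g had a slope of -0.32 ± 0.23 (edgeR adjusted p = 0.55), which turned to 0.12 with genotype left out, and Calb1 one of -0.40 ± 0.25 (adjusted p = 0.48), and Atp2b1 had the smallest slope of the 6, with an SE of 0.07. No member was called by edgeR for age in epithelium, beside 0.0605% of all genes, and 3 of 6 had an unadjusted p under 0.05, beside 14.2%. In stroma no member was called, beside 0.175%, and none had an unadjusted p under 0.05, beside 14.3%. DESeq2 called 381 genes in epithelium and 410 in stroma, and limma 19 and 52.

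**Figure D3:**
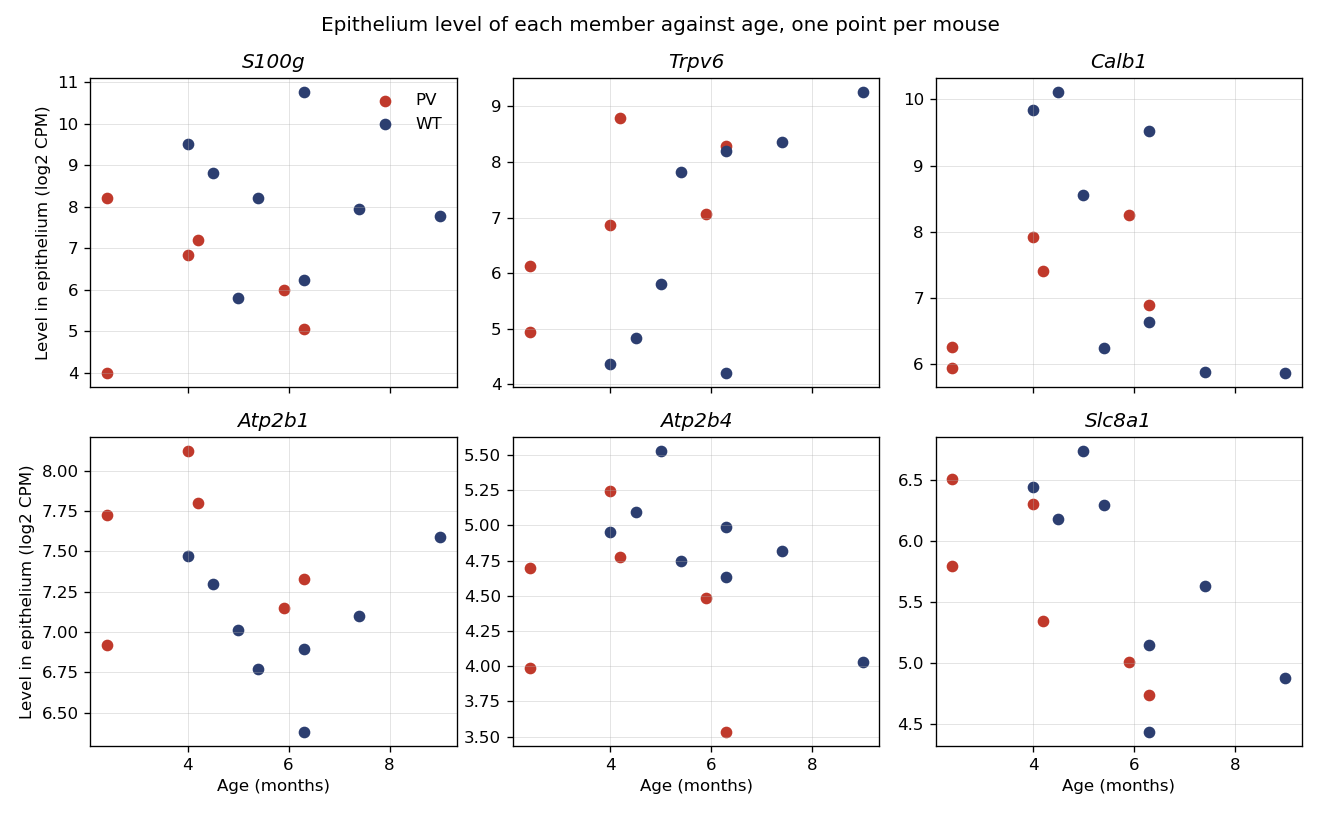
Epithelium level in log2 CPM (y axis, scaled per panel) against age in months (x axis) for the 6 PV and 8 WT mice. Trpv6 tends upward from 4.95 and 6.13 in the 2.4-month mice to 9.25 in the 9.0-month mouse with WT1 apart at 4.20, and Slc8a1 is lower in most of the older mice.

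Single regions showed that the members varied at different scales within the epithelium. Values here are log2 of the Q3-normalised value plus 1, over 60 regions of 14 mice. For Trpv6 only 14.3% of the variance around the genotype means lay between regions of the same mouse, and for S100g 35.4%. Within a genotype, most of the spread of both thus lay between mice. For Calb1 this share was 86.8%, with 79.9% for Atp2b1, 77.3% for Atp2b4 and 65.3% for Slc8a1. Each region counted equally, and PV1 gave 15 of them and PV2 only 1. Regions of a mouse share its section, age and cycle stage and were compared only as a description.

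Calb1 fell into high and low regions inside single mice. In WT1 its regions had 2.67, 3.104, 9.58 and 10.48, while Trpv6 in the same regions stayed between 3.37 and 4.18 and S100g between 9.86 and 10.50. In WT4 they had 3.55, 4.40 and 10.14, and in WT8 4.25 and 9.26. In PV4 they ran from 3.13 to 8.13 and in PV1 from 3.41 to 8.14. The high regions of WT1 and WT4 were those with little Foxa2, a gland transcription factor, at 3.70 and 3.84 in WT1 against 5.99 and 6.52 in its low regions, and at 2.08 in WT4 against 5.12 and 5.78. PV4, WT7 and WT8 showed the same order, WT2, WT3 and WT5 did not, and neither did PV1. Its regions with Calb1 at 8.14, 7.83 and 7.78 had Foxa2 at 5.54, 5.36 and 5.97, while those with Calb1 at 3.41, 3.95 and 4.16 had Foxa2 at 3.51, 4.12 and 3.41, and the region lowest in Foxa2 (1.70) had Calb1 at 7.81.

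S100g in WT4 followed Calb1, with 9.69 in the region where Calb1 was 10.14 and 5.56 and 6.63 in the others. In WT1 it did not, being high in all 4 regions. The PV1 regions of S100g spread from 4.71 to 8.38, and the PV6 regions stayed low, from 3.95 to 4.58.

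**Figure D4:**
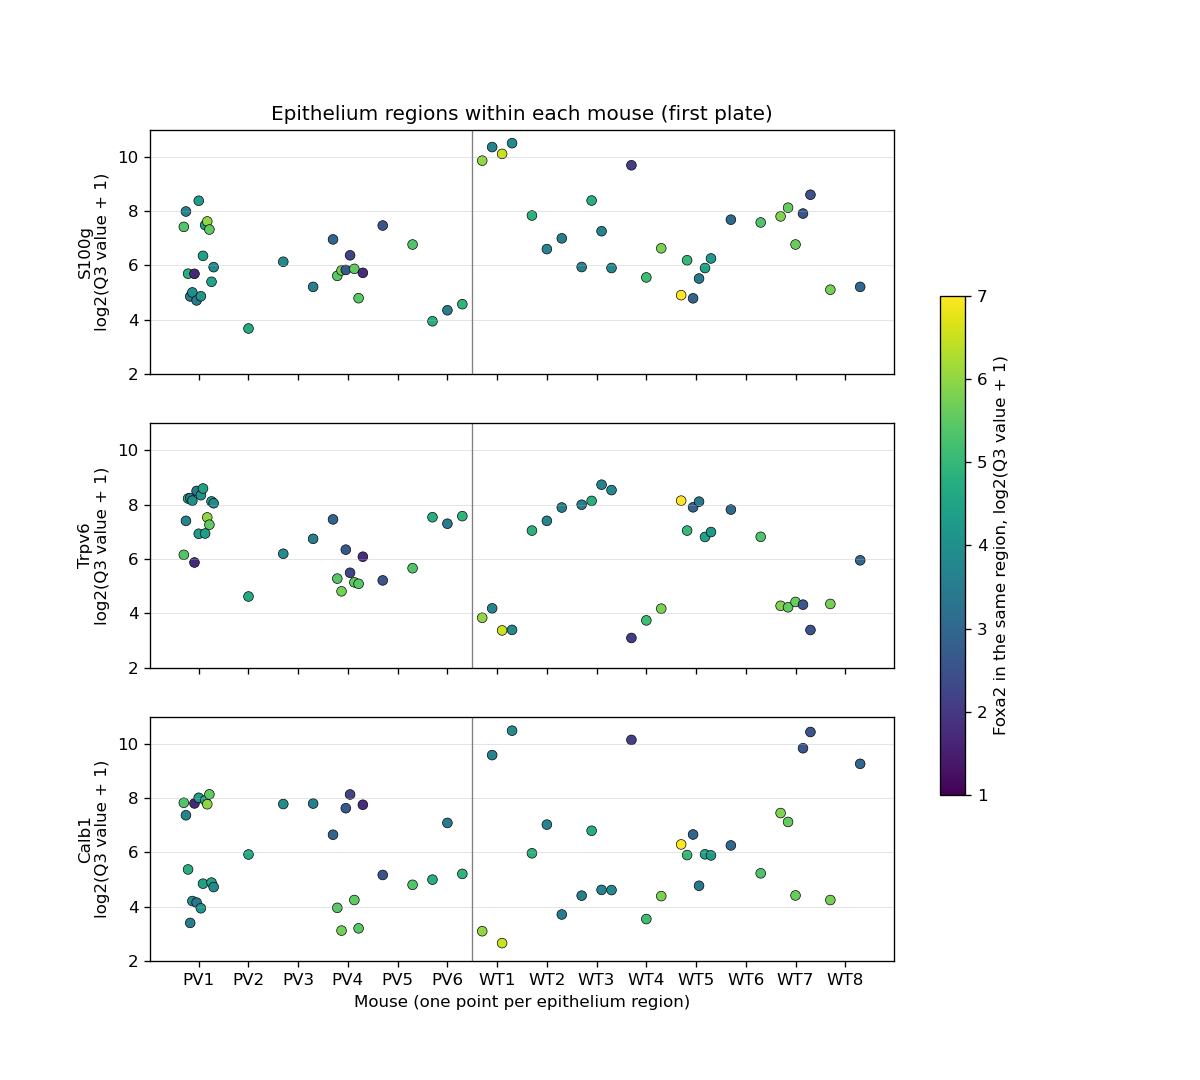
S100g, Trpv6 and Calb1 in each epithelium region, as log2(Q3 value + 1) on the y axis, by mouse on the x axis, with colour for Foxa2 in the same region. Trpv6 regions cluster by mouse, whereas Calb1 splits into high and low regions. In WT1 and WT4 the regions high in Calb1 (9.58, 10.48 and 10.14) are those low in Foxa2. PV4, WT7 and WT8 show the same order, whereas PV1, WT2, WT3 and WT5 do not.

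After each mouse's mean was removed, 59 epithelium regions of 13 mice gave descriptive correlations, in which the points share mice and the scaling factor of their region. S100g went with Calb1 (r = 0.63, and 0.54 over the 44 regions without PV1, which held 15) in PV (0.72) and in WT mice (0.56). Calb1 went against the gland markers (r = -0.64), with -0.87 in WT mice, -0.21 in PV mice and -0.87 without PV1. S100g with the gland markers gave -0.14, with -0.40 without PV1, -0.36 in WT and 0.14 in PV mice. S100g with Trpv6 gave -0.35, with -0.15 without PV1, -0.43 in WT and -0.32 in PV mice.

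The extrusion genes also differed between regions. Their r with the gland markers was -0.58 for Atp2b1, 0.62 for Atp2b4 and 0.63 for Slc8a1, beside -0.64 for Calb1. Calb1 with Atp2b4 gave -0.20, with -0.56 without PV1, -0.44 in WT and -0.04 in PV mice. Calb1 with Slc8a1 gave -0.07, with -0.60 without PV1, -0.58 in WT and 0.47 in PV mice. Atp2b1 and Atp2b4 ran in opposite directions (r = -0.79, and -0.75 without PV1), while Atp2b4 and Slc8a1 ran together (0.71, and 0.72 without PV1). Atp2b1 followed the columnar epithelium markers (0.78), and Atp2b4 (-0.85) and Slc8a1 (-0.78) went against them. Atp2b4 also went with the endothelial markers (0.69). Region depth moved with the same genes, at r = 0.42 for Atp2b1 and -0.38 for both Atp2b4 and Slc8a1 (0.36, -0.17 and -0.15 without PV1), and its part in these values was not tested.

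**Figure D5:**
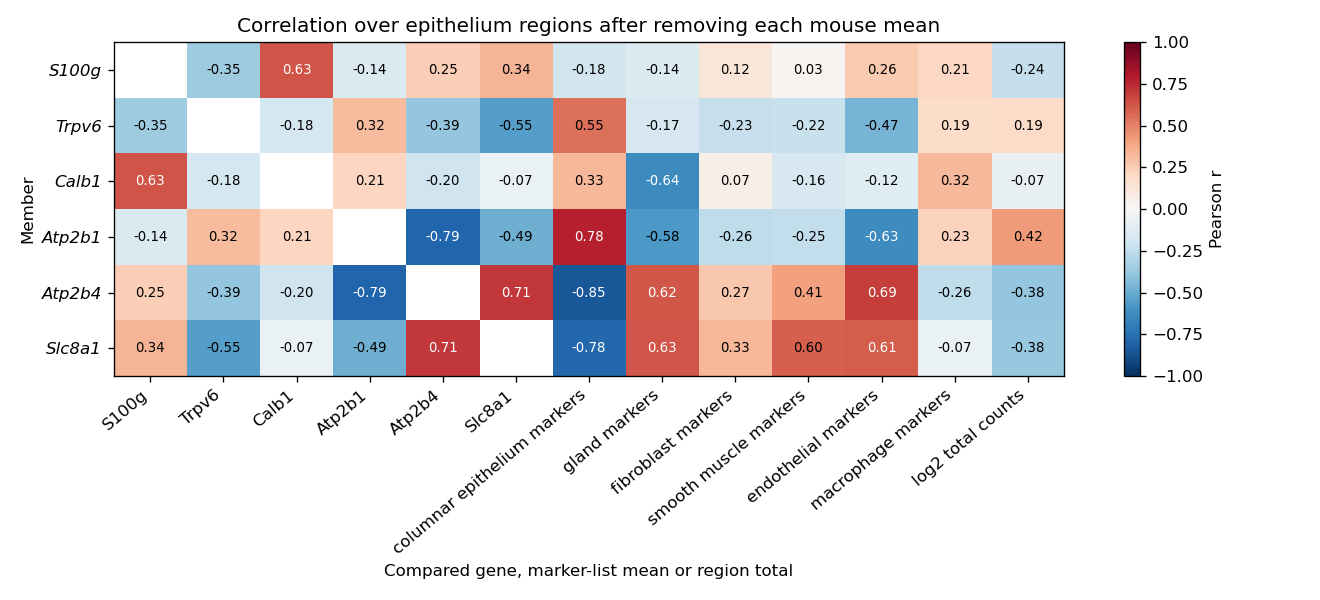
Pearson r over 59 epithelium regions of 13 mice after removing each mouse mean, for each member (rows) with the other members, marker-list means and region depth (columns). Red cells are positive and blue cells negative, and the strongest are Atp2b4 with the columnar markers (-0.85) and Atp2b1 with Atp2b4 (-0.79).

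Across all 27 sums of mouse and compartment, the genes whose log2 CPM was most like that of S100g were Nudt19 (Pearson r = 0.87), Ncald (0.86), Atp1b1 (0.85), Ndufc2 (0.85) and Pcx (0.84). These correlations contain the difference between compartments that S100g shares with every epithelial gene, and Calb1 stood at rank 130 of 14880 at 0.76. Over the 14 epithelium sums alone the leading genes were Pgrmc2, a membrane-associated progesterone receptor component (0.89), Zfp1 (0.89), Osbpl8 (0.86), Adcy9 (0.86) and Zfp655 (0.86). There the members gave 0.46 for Atp2b4, 0.43 for Calb1, 0.03 for Slc8a1, -0.10 for Atp2b1 and -0.31 for Trpv6. These lists were ranked out of 14880 genes over few sums that share mice and depth, so they describe these samples. Both genotypes were pooled and S100g was chosen on its genotype values. Genes that differ by genotype can therefore rank high.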

How the data were processed

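RNA was counted with the GeoMx mouse whole-transcriptome panel in 189 regions of uterus from 14 mice on 2 plates. The authors deposited expected counts per target from their pipeline with 0 replaced by 1, signal values in which a region's counts are divided by its upper quartile (Q3 normalisation, GeomxTools), and per-region files of probe counts, a format holding other fields as well, whose zeros are intact. Per the labels, processing used R 4.1.2, Space Ranger and mm10. The authors' filter kept targets detected above background in enough regions. Their methods describe a test of regions in Seurat by a linear mixed model with a likelihood ratio test. The design text names fewer mice than the labels, and the labels were used. Ages carry no unit and were read as months. The negative-probe row (5.3e-04% of counts) was dropped.

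Deposited expected counts of first-plate regions were summed per mouse and compartment, rounded and tested for the 14881 filtered targets with the quasi-likelihood test of edgeR 4.0.16 (TMM, two-sided, R 4.3.3), with Benjamini-Hochberg adjustment over all genes at 0.05. Log2 CPM used a prior count of 2, and log2 Q3 values a pseudocount of 1. Compartments and the genotype by compartment term were fitted with the mouse as a block, since both compartments came from the same animal. As a check of the pairing, both sums of a mouse were set against their groups' means, and these deviations had correlations from 0.16 to 0.53 with a median of 0.30, above 0.1 for 13 of 13 animals. Sums of different animals had a median correlation of -0.04. For 7 of 13 epithelium sums the highest correlation was with the stroma sum of the same mouse. Alternatives were DESeq2 1.42.0, limma 3.58.1 on mean log2 Q3 values, upper-quartile scaling, other gene filters, subtraction of the negative probe, true zeros, both plates or the second, age as a covariate, narrower ages, age in 2 classes, mice with at least 2 regions, no block and each mouse left out, and, added after the data were seen, correlations without PV1. The tests were also run on simulated data. Members and lists were chosen with earlier results of these data known. Named genes were the members, up to 3 called genes per direction and list by lowest p (otherwise the lowest unadjusted p under 0.05), and the 5 genes most like S100g. Sums of few counts limit precision, since counting error alone is large below a few counts.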

Additional observations from a re-analysis of the deposited data

Results flagged for a closer look

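Of 24 groups of members tested by Dixon's criterion, 1 held a sample apart from the rest, and chance alone gives about 1 flag in 20 groups. It was Atp2b4 in PV2 stroma, at 3.46 log2 CPM, against 5.53 to 6.70 in the other PV stroma sums. That sum is a single region in which Atp2b4 had 1 count. The paired Atp2b4 difference between compartments was called with and without PV2.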

How the results depend on the processing

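The calls of S100g, Trpv6, Calb1 and Atp2b4 between compartments held in every alternative on the first plate and with both plates together, and were lost on the second plate alone. Numbers of genes called moved as follows, by comparison. For genotype in epithelium, DESeq2 called 28, age as a covariate 10 and mice of 4.0 to 6.3 months 1, with 0 to 6 when a mouse was left out (6 without PV6 or WT5). For genotype in stroma DESeq2 called 2 and limma 1, with 0 to 1 in leave-one-out fits. For genotype by compartment DESeq2 called 1, and leaving out a mouse gave 0 throughout. For epithelium versus stroma (9412 genes) both plates gave 5056, the second plate 0, and leave-one-out 8735 to 9393, while upper-quartile scaling moved the median of all genes by -0.14 and the share of called genes higher in epithelium from 45.3% to 33.8%. Without the replicate block it called 7903 and genotype by compartment 0, and the pairing changed the call of Atp2b1 and Slc8a1 among the members. For age in epithelium (9 genes), DESeq2 gave 381, upper-quartile scaling 1, filterByExpr 30, no gene filter 30, limma 19, subtraction of the negative probe 1, both plates 1, the second plate 0, genotype left out 0 and 2 age classes 15, with 1 to 206 in leave-one-out fits (206 without PV1 and 80 without WT1). For age in stroma (26 genes), DESeq2 gave 410, upper-quartile scaling 52, limma 52, subtraction of the negative probe 0, both plates 0, the second plate 0, genotype left out 3 and 2 age classes 1, with 0 to 184 in leave-one-out fits (184 without PV1 and 167 without PV6).

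Signs turned where the second plate was used, and the cause was not tested. S100g in stroma (PV minus WT) became 0.75 on both plates and 1.18 on the second. Epithelium minus stroma became -0.10 on both plates and -0.42 on the second for Atp2b1, and on the second plate 0.19 for Atp2b4, 0.14 for Slc8a1, -0.17 for Stim2, 0.071 for Cacna1h, -0.23 for Calm2, 0.26 for Rcn3, 0.23 for Rcn1, 0.21 for Cabp1, -0.14 for Itpr3, -0.19 for Atp2c2, 0.014 for Slc8b1, 0.20 for Fgfr1, -0.11 for S100a11 and 0.16 for S100a7a. Over all comparisons the signs of members turned 20 times under first-plate settings, 25 times in leave-one-out fits and 29 times with the second plate in use, the member values just given included. Depth limits the stroma levels of S100g, Trpv6 and Calb1, which lay near the negative probe, and all values of PV2. It also limits the low levels of Vdr and Lrp2 in PV epithelium.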
